A study of Mus musculus with 5 samples.

Results

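Hipk1, Hipk2, Hipk3, Trp53, Mdm2 and Mdm4 were followed through 5 RNA sequencing libraries of Treg (regulatory T) cells, which depend on the transcription factor Foxp3 and hold back immune responses. They are 6 of the 38130 gene entries of the deposited files, and all 6 were among the 11296 entries with a mean level high enough to be tested. The genes were taken by symbol, and the group was chosen by a measured value, because the FPKM of Hipk2 in the KI libraries exceeded that in both WT libraries. The KI and WT values of these genes are therefore given as a description, with no test.

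Homeodomain-interacting protein kinases (HIPKs) are nuclear serine/threonine kinases of the DYRK family. HIPK2 phosphorylates p53, the product of Trp53, after DNA damage, at a serine linked in human cells to the apoptotic response, and it also acts on corepressors and on Wnt and TGF-beta signalling. Mdm2 is the ubiquitin ligase that marks p53 for degradation and is itself switched on by p53, and Mdm4 is its relative that binds p53 and blocks its activity. Much of this control acts on protein stability and modification, which RNA levels do not show.

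CD4+YFP+ cells were sorted from C57BL/6 mice, all of which carried a Cre-YFP driven by Foxp3. KI denotes 2 libraries from 6-week mice whose Malt1 alleles were 1 floxed and 1 encoding the C472A substitution, described in the labels as inhibiting Malt1 protease activity in Treg cells. KO denotes 1 library from mice at 21 days with floxed Malt1 alleles, deleted in Treg cells according to the labels. Wild type (WT) reporter mice gave 1 library at 6 weeks and 1 at 21 days. The design sets libraries labelled as Malt1-deleted or protease-inhibited against WT. Malt1 encodes a paracaspase that relays antigen receptor signals to NF-kB. Foxp3-driven Cre acts on the floxed alleles in Foxp3-expressing cells, so in KI the floxed allele is also open to deletion. Whether other cells of the KI mice carry the C472A allele is not settled here. The labels do not say whether libraries came from separate or pooled animals, so the spread between the KI libraries may be technical.

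Levels are scaled FPKM, the deposited fragments per kilobase of transcript and sequencing depth, put on a common scale by a median-of-ratios factor. The bounds are those deposited with each value, 2 standard errors on either side, and they cover error within a library only. FPKM hold no counts, and the depth relative to 6-week WT, estimated from the bounds, was 3.29 and 3.22 in KI, 1.13 in KO and 3.90 in 21-day WT. KI and 21-day WT thus shared a greater depth, and KO and 6-week WT a lower one. Malt1 stood at 55.9 and 37.8 in KI, at 17.6 in the library labelled KO, at 15.2 in 6-week WT and at 27.0 in 21-day WT. The level of the targeted gene in the library labelled KO lay between the WT libraries, so this gene-level value does not show the labelled deletion. A sum over the gene can stay up if only some exons are deleted. No values by exon were at hand, and neither this nor any other reason was tested. Foxp3 was present in every library, at 70.1 and 73.6 in KI, 30.5 in the library labelled KO, 39.5 in 6-week WT and 70.7 in 21-day WT.

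Hipk2 (ENSMUSG00000061436) lies on the minus strand of mouse chromosome 6, from 38694390 to 38876165 in GRCm38. Of the genes followed here, Hipk2 differed most in level between libraries, so the windows at its start sites are shown. The RefSeq table used here holds 2 of them, and the windows run from 250 bases before to 50 bases after each. Both are 5′ to 3′ on the minus strand, in GRCm38.p6, with CpG dinucleotides in capitals. A gene-level FPKM does not say which start was used.
Hipk2 chr6:38876141-38876440: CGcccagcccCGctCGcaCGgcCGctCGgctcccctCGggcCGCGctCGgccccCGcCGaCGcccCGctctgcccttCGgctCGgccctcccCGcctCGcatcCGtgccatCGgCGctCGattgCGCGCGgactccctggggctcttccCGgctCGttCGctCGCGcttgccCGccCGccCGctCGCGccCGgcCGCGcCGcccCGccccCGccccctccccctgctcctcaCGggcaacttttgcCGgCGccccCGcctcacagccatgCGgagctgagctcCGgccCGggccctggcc
Hipk2 chr6:38837262-38837561: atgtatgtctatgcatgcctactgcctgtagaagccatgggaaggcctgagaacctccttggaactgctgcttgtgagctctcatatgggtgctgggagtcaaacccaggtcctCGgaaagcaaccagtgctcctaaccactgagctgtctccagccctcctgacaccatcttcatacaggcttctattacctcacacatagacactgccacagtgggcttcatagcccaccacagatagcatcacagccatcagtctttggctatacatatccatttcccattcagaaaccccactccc
The upstream window held 48 CpG dinucleotides and the downstream window 1. Over 32851 RefSeq windows of the same length the median was 7, and the upstream window stood at percentile 98.8.

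Mdm2 (ENSMUSG00000020184, minus strand of chromosome 10, 117688888 to 117710758) and Trp53 (ENSMUSG00000059552, plus strand of chromosome 11, 69580359 to 69591873) form the feedback pair around p53. Their windows are shown because they held the matches to the motifs searched in the 9 windows of the 6 genes. These were the p53 half-site and the NF-kB site, the motif of the factors that Malt1 signals to, both searched on both strands. Matches are in capitals, and each sequence runs 5′ to 3′ on the gene's strand.
Mdm2 chr10:117710709-117711008: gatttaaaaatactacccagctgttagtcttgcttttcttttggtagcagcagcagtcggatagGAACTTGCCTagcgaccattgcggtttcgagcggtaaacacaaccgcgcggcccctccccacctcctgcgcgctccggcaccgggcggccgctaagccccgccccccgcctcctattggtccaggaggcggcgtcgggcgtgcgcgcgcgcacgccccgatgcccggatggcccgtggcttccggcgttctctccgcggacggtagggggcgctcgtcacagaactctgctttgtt
Trp53 chr11:69580109-69580408: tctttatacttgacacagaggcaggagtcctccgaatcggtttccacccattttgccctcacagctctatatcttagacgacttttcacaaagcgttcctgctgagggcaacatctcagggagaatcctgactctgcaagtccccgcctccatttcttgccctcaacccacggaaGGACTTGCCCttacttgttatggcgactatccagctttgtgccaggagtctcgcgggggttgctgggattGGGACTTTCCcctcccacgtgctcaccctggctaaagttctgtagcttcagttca
In Mdm2 the capitals mark a p53 half-site match, GAACTTGCCT, that begins at position -186 from the transcript start. In Trp53 the first capitals, GGACTTGCCC at position -75, match the p53 half-site and the second, GGGACTTTCC at position -5, match the NF-kB site, and the matches do not overlap. A p53 half-site match was present in 8.36% of all 32851 windows and an NF-kB match in 4.51%. A match is one of letters only: binding was not measured, and sequence outside the windows was not searched. The windows of Hipk1, Hipk2, Hipk3 and Mdm4 held neither, which says only that these letters are not in those windows.

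Hipk2 was the member with the widest range. Its scaled FPKM was 28.2 (bounds 26.6 to 29.8) and 32.7 (31.1 to 34.3) in the KI libraries, 14.0 (12.4 to 15.6) in the library labelled KO, 4.63 (3.75 to 5.51) in 6-week WT and 11.7 (10.7 to 12.7) in 21-day WT. Both KI libraries were above the other libraries with bounds well apart, 6-week WT was below all others, and the bounds of KO and 21-day WT overlapped. The KI mean of 30.5 ± 3.18 (SD, n = 2) was 6.58 times the level in 6-week WT and 2.60 times the level in 21-day WT. Differences below are on the log2(scaled FPKM + 1) scale, where the KI mean lay 2.48 above 6-week WT and 1.31 above 21-day WT. Among all tested genes, 0.283% were past 2-fold higher in all 4 KI-WT pairs, as Hipk2 was; because this contrast chose the gene, the share is background only.

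The library labelled KO was not used in the choice. Hipk2 there lay 0.24 above 21-day WT on the log2 scale, with overlapping bounds, and 1.41 above 6-week WT, with bounds apart. Among all tested genes, 24.5% had bounds apart and higher in KO than in 21-day WT, and 10.1% in KO than in 6-week WT. With 1 library in each of these groups there is no replicate check. The WT libraries themselves differed by -1.17 (6-week WT minus 21-day WT), as 5 of the 6 genes, all but Trp53, lay lower in 6-week WT with bounds apart, where 23.0% of tested genes did, so the size of a Hipk2 difference depends on which WT library is set against the mutant.

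**Figure D1:**
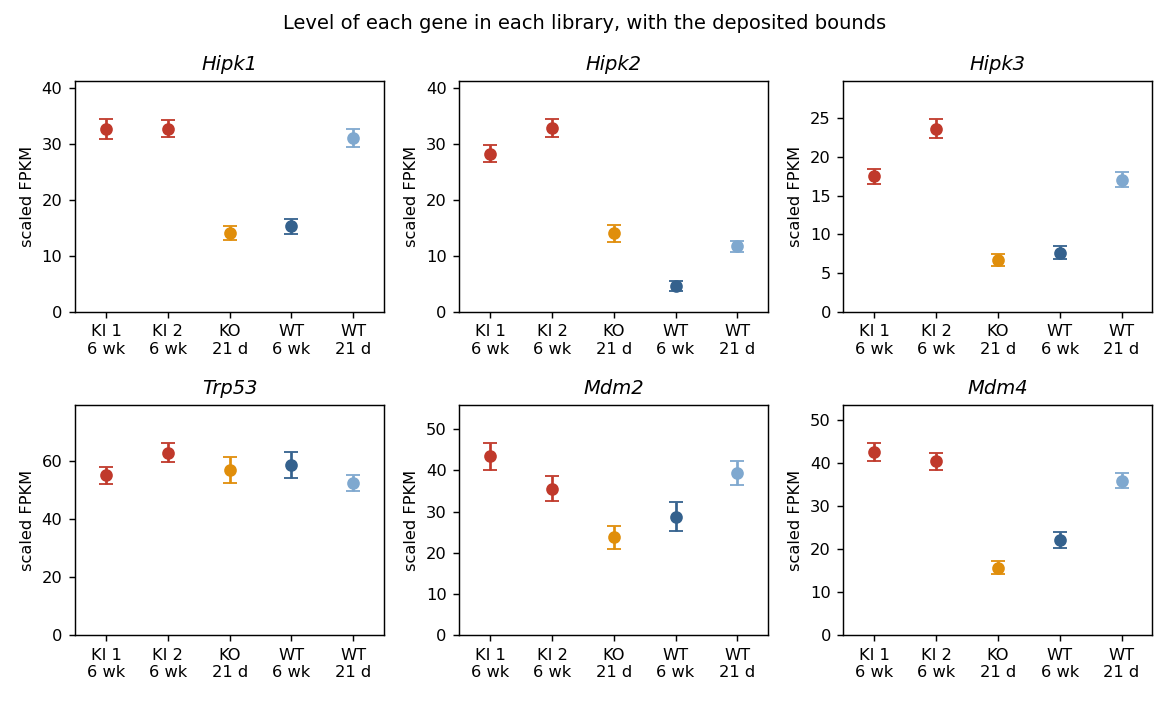
Scaled FPKM of the 6 genes (vertical axes, each from 0) in the 5 libraries (horizontal axis), with the deposited lower and upper bounds as error bars. Hipk2 is highest in the KI libraries at 28.2 and 32.7, Hipk1, Hipk3, Mdm2 and Mdm4 are lowest in KO and 6-week WT, and Trp53 stays between 52.4 and 62.7.

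Hipk1 (ENSMUSG00000008730, chromosome 3, 103739815 to 103791563, minus strand), a close relative of Hipk2 that also binds p53, followed another order. Its scaled FPKM was 32.6 (bounds 30.9 to 34.4) and 32.8 (31.2 to 34.3) in KI, 14.1 (12.8 to 15.3) in KO, 15.2 (13.8 to 16.6) in 6-week WT and 31.0 (29.4 to 32.6) in 21-day WT. The KI libraries and 21-day WT were high with overlapping bounds, and KO and 6-week WT were low with overlapping bounds. The KI mean of 32.7 ± 0.0858 (SD, n = 2) lay 1.05 above 6-week WT and 0.07 above 21-day WT on the log2 scale, and KO lay at -1.09 against 21-day WT.

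Hipk3 (ENSMUSG00000027177, chromosome 2, 104426481 to 104494446, minus strand), a cytoplasmic and nuclear kinase known to phosphorylate the death receptor adaptor FADD, showed the same split at a lower level. It had 17.5 (bounds 16.5 to 18.5) and 23.6 (22.4 to 24.8) in KI, 6.70 (5.95 to 7.45) in KO, 7.63 (6.78 to 8.47) in 6-week WT and 17.1 (16.1 to 18.0) in 21-day WT. KI replicate 2 stood above every other library, while KI replicate 1 and 21-day WT overlapped, as did KO and 6-week WT. The KI mean of 20.6 ± 4.35 (SD, n = 2) lay 1.31 above 6-week WT and 0.24 above 21-day WT, and KO lay at -1.23 against 21-day WT. Both KI libraries were above 6-week WT with bounds apart for 5 of the 6 genes, all but Trp53, beside 16.0% of all tested genes, a share that the choice of Hipk2 makes background only.

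Set against its relatives within each library, Hipk2 was higher in the mutant libraries than in the WT libraries. In KO this goes with lower levels of the relatives: against 21-day WT, Hipk1 lay at -1.09 and Hipk3 at -1.23, while Hipk2 differed by 0.24 with overlapping bounds. These ratios were computed after the values had been seen, and they do not depend on the scaling between libraries. The ratio of Hipk2 to Hipk1 was 0.865 (interval 0.801 to 0.934) and 0.999 (0.933 to 1.07) in KI, 0.993 (0.861 to 1.15) in KO, 0.304 (0.246 to 0.375) in 6-week WT and 0.377 (0.342 to 0.416) in 21-day WT. The intervals come from the deposited bounds, and those of the mutant libraries lay above those of both WT libraries, which overlapped each other.

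The ratio of Hipk2 to Hipk3 was 1.61 and 1.38 in KI, 2.09 in KO, 0.607 in 6-week WT and 0.686 in 21-day WT. Hipk2 was thus above Hipk3 in each mutant library and below it in each WT library. Of 11027 tested genes above 0 in all libraries, 0.154% were, like Hipk2, past 2-fold higher relative to Hipk1 in all 6 mutant-WT pairs, and 0.0998% relative to Hipk3. The choice of Hipk2 used 4 of these 6 pairs, so both shares are background only. The ratio of Hipk3 to Hipk1 was 0.536 and 0.722 in KI, 0.476 in KO, 0.501 in 6-week WT and 0.550 in 21-day WT, and KI replicate 2 was the library that stood apart. The choice of the genes used the KI and WT values of Hipk2, so the KO ratio, which rests on 1 library, is set against WT values that took part in the choice.

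**Figure D2:**
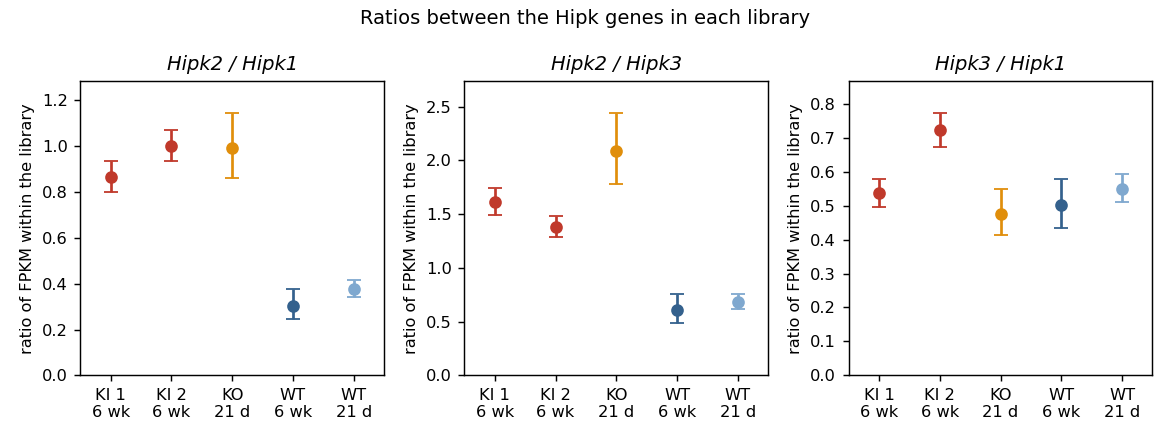
Ratios of FPKM between Hipk genes within each library (vertical axes, from 0), with intervals of 2 standard errors from the deposited bounds. The ratio of Hipk2 to Hipk1 is between 0.865 and 0.999 in the mutant libraries and at 0.304 and 0.377 in the WT libraries, while Hipk3 to Hipk1 stays between 0.476 and 0.722.

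On the common scale, Trp53 RNA varied little. It had 55.0 (bounds 52.0 to 57.9) and 62.7 (59.4 to 66.0) in KI, 56.7 (52.2 to 61.2) in KO, 58.6 (54.2 to 63.0) in 6-week WT and 52.4 (49.6 to 55.2) in 21-day WT. The KI libraries spanned the level of 6-week WT, and the highest library stood at 1.20 times the lowest. The bounds of KI replicate 2 lay apart from those of KI replicate 1 and of 21-day WT. As deposited, before scaling, Trp53 ran from 45.9 in 21-day WT to 67.4 in 6-week WT. The KI mean of 58.8 ± 5.48 (SD, n = 2) differed by 0.16 on the log2 scale from 21-day WT, less than the 0.19 by which KI replicate 2 exceeded KI replicate 1. Trp53 was the highest of the 6 genes in every library, and its relatives were near absent, with Trp63 listed at 0 in all libraries and Trp73 at 0.710 or less.

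Mdm2, which p53 switches on and which in turn removes p53, had 43.4 (bounds 40.2 to 46.6) and 35.6 (32.5 to 38.7) in KI, 23.7 (21.0 to 26.5) in KO, 28.7 (25.2 to 32.2) in 6-week WT and 39.4 (36.4 to 42.3) in 21-day WT. KI and 21-day WT were high, and KO and 6-week WT were low and overlapped. The KI mean of 39.5 ± 5.50 (SD, n = 2) lay 0.44 above 6-week WT, and KO lay at -0.71 against 21-day WT. KO was below 21-day WT with bounds apart for 4 of the 6 genes, Hipk1, Hipk3, Mdm2 and Mdm4, beside 27.2% of all tested genes.

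Mdm4 (ENSMUSG00000054387, chromosome 1, 132989845 to 133025366, minus strand), the partner of Mdm2, had 42.5 (bounds 40.3 to 44.6) and 40.4 (38.5 to 42.4) in KI, 15.7 (14.1 to 17.2) in KO, 22.1 (20.2 to 24.1) in 6-week WT and 35.9 (34.1 to 37.7) in 21-day WT. Both KI libraries were above both WT libraries, and KO was below both, with bounds apart in each case. The KI mean of 41.4 ± 1.44 (SD, n = 2) lay 0.88 above 6-week WT and 0.20 above 21-day WT on the log2 scale. The difference of KO from 21-day WT was -1.15, and that from 6-week WT was -0.47. Bounds apart from both WT libraries were found for 3.23% of tested genes higher in KI and for 8.25% lower in KO.

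With Trp53 nearly level on the common scale, the ratios of its inhibitors to it followed the inhibitors. Mdm4 to Trp53 was 0.772 and 0.645 in KI, 0.276 in KO, 0.377 in 6-week WT and 0.685 in 21-day WT. Mdm2 to Trp53 was 0.789 and 0.567 in KI, 0.419 in KO, 0.490 in 6-week WT and 0.751 in 21-day WT. The KI ratios were above those of 6-week WT, with overlapping intervals for Mdm2 in KI replicate 2, and they lay on both sides of those of 21-day WT, as KI replicate 1 was the higher and KI replicate 2 the lower in both.

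Hipk1, Hipk3, Mdm2 and Mdm4 shared a feature that crosses age and genotype: each was higher in both KI libraries and 21-day WT than in KO and 6-week WT, with bounds apart in all 6 pairs. Of all tested genes 10.4% had this pattern. It is also the split by depth, and it moved with transcript length. The longest annotated transcripts (GENCODE M21) of Hipk1, Hipk2, Hipk3 and Mdm4 are 7939, 7684, 7454 and 7105 nt long. Among the 840 tested genes with a longest transcript over 6000 and up to 8000 nt, the median log2 difference was 0.38 for KI against 6-week WT and -0.39 for KO against 21-day WT. For KI against 21-day WT, libraries of like depth, it was 0.05. In the class over 1000 and up to 2000 nt these medians were -0.28, 0.30 and -0.03.

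The 4 long members lay further from 0 than the median of their length class in both age-matched comparisons, except Hipk2 in KO. By their longest transcripts, of 3145 and 3275 nt, Mdm2 and Trp53 belong to the class over 2000 and up to 4000 nt. Its medians were -0.08 for KI against 6-week WT and 0.12 for KO against 21-day WT. The longest coding transcript of Trp53 has 1867 nt, which lies in the class over 1000 and up to 2000 nt. The medians of that class were -0.28 and 0.30. Whether depth, length or another property of the libraries sets the shared pattern was not tested. Set against 21-day WT, which has like depth but another age, the KI mean of Hipk2 lay 1.31 higher, and those of the other members lay between -0.0024 (Mdm2) and 0.24 (Hipk3). Age and genotype cannot be told apart in that comparison.

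**Figure D3:**
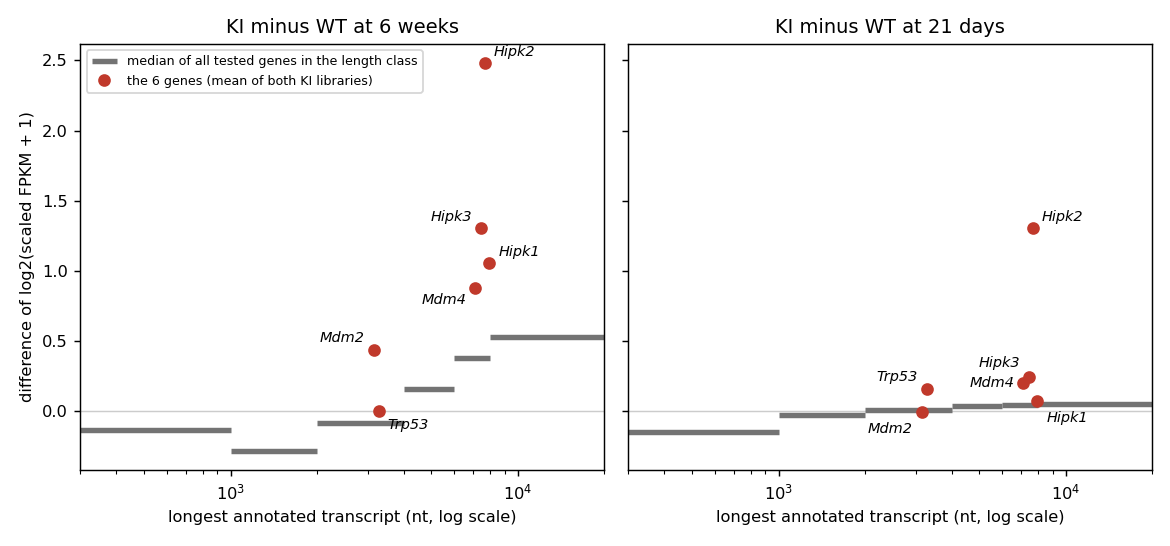
Difference of log2(scaled FPKM + 1) between the KI mean and 6-week WT (left) or 21-day WT (right) against the longest annotated transcript (nt, log scale); points are the 6 genes and grey bars the medians of all tested genes by length class. At the left the bars go from -0.13 for the shortest class to 0.53 for the longest, at the right they end at 0.05, and Hipk2 lies at 2.48 and 1.31.

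How far reads shared with other genes enter these values was not tested, and only shared transcript sequence was counted. Counted as stretches of 50 bases, none of the members' transcript sequence was shared with another member. Of Hipk2, 4.77% was shared with its neighbour Ubn2, which had scaled FPKM of 4.27 to 12.7. Of Mdm4, 7.30% was shared with the pseudogene Mdm4-ps, at 0.0307 or less, and of Hipk1, 5.32% with the antisense gene Gm15886, at 0.704 or less. The strand setting is not given in the sources used here, and without it overlapping and antisense genes are not told apart. Hipk2 also overlaps Tbxas1 on the other strand.

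RNA of marker genes of other cell types was a second difference between the libraries. Markers of plasmacytoid dendritic cells (4 genes) summed to 19.1 and 27.4 scaled FPKM in KI, 37.5 in KO, 97.2 in 6-week WT and 41.2 in 21-day WT. Bst2 was the largest part of each sum, at 18.4 and 26.1 in KI, 32.7 in KO, 65.8 in 6-week WT and 31.9 in 21-day WT. Siglech, which defines these cells, was 0 and 0.149 in KI, 1.24 in KO, 16.8 in 6-week WT and 0.294 in 21-day WT. Myeloid markers (5 genes) summed to 23.1 and 4.24 in KI, 13.5 in KO, 86.6 in 6-week WT and 6.42 in 21-day WT. B cell markers (4 genes) ranged from 2.87 in KI to 20.6 in 6-week WT. All 4 plasmacytoid, 4 of 4 tested myeloid and 3 of 3 tested B cell markers were lower in both KI libraries than in 6-week WT, where 38.0% of all tested genes were. Gzma, a granule protease of NK cells and cytotoxic T cells, had 1.17 and 1.01 in KI, 14.9 in KO, 5.23 in 6-week WT and 1.54 in 21-day WT. Treg markers (6 genes) summed to 793 and 743 in KI, 358 in KO, 407 in 6-week WT and 753 in 21-day WT, the same split as that of Hipk1, Hipk3, Mdm2 and Mdm4. Ctla4 was the largest part of each sum. Tnfrsf18, at 103 and 112 in KI, 102 in KO, 90.0 in 6-week WT and 99.5 in 21-day WT, did not share the split. Of the 4 T cell markers, 3 (Cd3e, Cd3d and Cd4) were lower in both KI libraries than in 6-week WT, and Cd28 was higher. The part of these cell types in the values of the Hipk and p53 genes was not tested. In bulk RNA fewer cells of a type and less RNA per cell cannot be told apart.

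The p53 targets lay on both sides of 6-week WT in KI. The list held 31 genes, of which 27 were tested. In KI against 6-week WT, 13 lay higher in both libraries, 6 lower in both and the rest on different sides, where 36.6% of all tested genes were higher in both and 38.0% lower in both. The median log2 difference was 0.12, beside -0.0045 for all tested genes, and it was 0.31 in KI replicate 1 and 0.07 in KI replicate 2. By limma over all genes 0 of 27 passed an adjusted p of 0.05 and 1 had an unadjusted p under 0.05, where the fit called 1 gene of 11296 in all (0.00885%) and 1188 had an unadjusted p under 0.05. Past 2-fold in both KI libraries lay 1 of 27, where 3.01% of all tested genes were that much higher.

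That gene was Trp53inp1, whose product binds p53 and HIPK2 and promotes the phosphorylation of p53 by HIPK2. It had 80.1 and 109 scaled FPKM in KI, 22.9 in KO, 34.1 in 6-week WT and 90.9 in 21-day WT, and thus followed the depth split. Its difference of 1.43 in KI (SE 0.302) did not pass (limma, adjusted p = 0.458). Btg2, an antiproliferative gene and the highest of the list, had 123 and 62.3 in KI, 62.3 in KO, 60.9 in 6-week WT and 103 in 21-day WT, so KI replicate 1 was above 6-week WT and KI replicate 2 was close to it.

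Bax, which permeabilises mitochondria in apoptosis, had 30.9 and 30.6 in KI, 47.0 in KO, 42.1 in 6-week WT and 27.3 in 21-day WT, the reverse of the split. Rps27l, a ribosomal protein relative induced by p53, had 47.0 and 71.2 in KI, 73.2 in KO, 58.6 in 6-week WT and 45.0 in 21-day WT. Cdkn1a, the cell cycle inhibitor best known as a p53 target, is named here outside the rule for its role. It had 12.5 and 2.86 in KI, 10.7 in KO, 2.13 in 6-week WT and 5.67 in 21-day WT, and the KI libraries differed from each other by more than KI replicate 2 differed from either WT library.

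In the library labelled KO, the median of the 27 targets was -0.16 against 21-day WT, beside 0.016 for all tested genes, and 0.07 against 6-week WT. Past 2-fold lay 0 higher and 4 lower against 21-day WT, where 6.13% and 8.14% of tested genes were that much higher and lower. Sesn1, a stress-induced inhibitor of the growth kinase mTORC1, was the one target past 2-fold against both WT libraries, in the direction in which 0.938% of tested genes were. It had 21.7 and 19.5 in KI, 8.28 in KO, 32.6 in 6-week WT and 32.0 in 21-day WT. All mutant libraries were below both WT libraries, KO the most, and limma made no call (adjusted p = 0.425 for KO against 21-day WT).

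**Figure D4:**
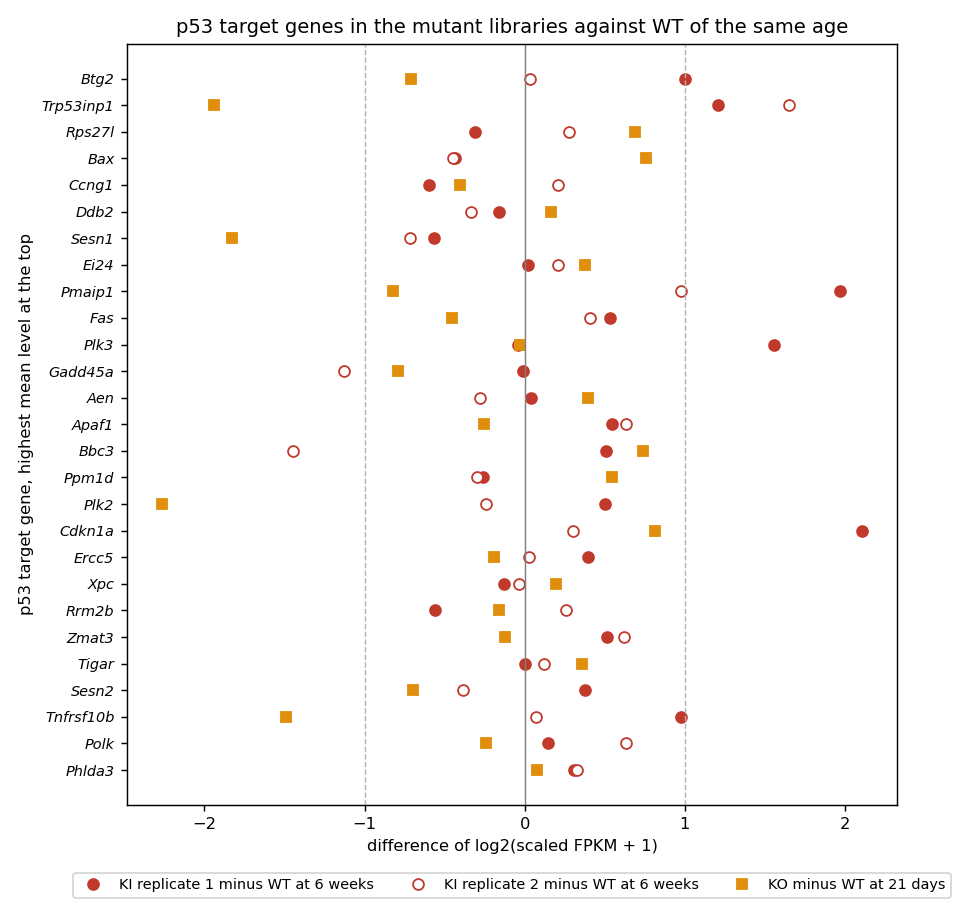
Difference of log2(scaled FPKM + 1) for the 27 tested p53 targets (rows, ordered by mean level) in KI replicates 1 and 2 against 6-week WT and in KO against 21-day WT; dashed lines mark 2-fold. Points lie on both sides of 0, Trp53inp1 is past 2-fold in both KI libraries and far on the other side in KO, and Cdkn1a lies at 2.11 in KI replicate 1 and at 0.30 in KI replicate 2.

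Upstream regulators of p53 (19 genes, all tested) had a median of 0.38 in KI against 6-week WT and of 0.04 against 21-day WT. In KI 11 lay higher and 6 lower in both libraries than 6-week WT, where 36.6% and 38.0% of all tested genes did. Past 2-fold in both lay 0, where 3.01% of all tested genes were that much higher. Tested genes with a longest transcript over 8000 nt, among them Atm, Ep300 and Crebbp, had a median of 0.53 for KI against 6-week WT. Rpl11 and Rpl5, ribosomal proteins that bind and inhibit Mdm2, were the highest of the list. Rpl11 had 588 and 444 in KI, 1109 in KO, 927 in 6-week WT and 603 in 21-day WT, and Rpl5 had 625 and 466 in KI, 766 in KO, 772 in 6-week WT and 678 in 21-day WT. Rpl11 was thus low where Hipk1 and Mdm4 were high.

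Usp7, which removes ubiquitin from p53 and Mdm2, had 62.2 and 61.7 in KI, 34.1 in KO, 40.5 in 6-week WT and 50.8 in 21-day WT. Rchy1, another ubiquitin ligase for p53, had 23.1 to 29.4 in all libraries. Cdkn2a, which encodes the Mdm2 inhibitor Arf, had 1.15 and 0.754 in KI, 3.45 in KO, 0.367 in 6-week WT and 0.360 in 21-day WT. It was the gene of the list past 2-fold in KO against both WT libraries, in the direction in which 2.17% of tested genes were, at low levels. In KO the list's median was -0.07 against 21-day WT, and 1 gene, Cdkn2a, was past 2-fold higher and 4 past 2-fold lower, where 6.13% and 8.14% of tested genes were. The 4 lower genes, named after their values were seen, were Atm at -1.57, Sirt1 at -1.25, Ep300 at -1.23 and Crebbp at -1.08. Against 6-week WT, of like depth but another age, they lay at -0.73, -0.37, -0.38 and -0.25. Atm, Ep300 and Crebbp have longest transcripts over 8000 nt, a class with a median of -0.63 for KO against 21-day WT. The part of depth and length in these differences was not tested. By limma 0 of 19 were called in either comparison, with 1 unadjusted p under 0.05 in KI and 3 in KO, where the KO fit called 0 genes in all and 1171 had an unadjusted p under 0.05.

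HIPK partners and regulators (19 genes, 18 tested) centred on 0.0058 in KI against 6-week WT (0.22 in KI replicate 1 and -0.0011 in KI replicate 2) and on -0.21 in KO against 21-day WT, and none was past 2-fold in both KI libraries or in KO. Ctbp1, a corepressor that HIPK2 marks for degradation, had 52.4 and 51.5 in KI, 59.1 in KO, 57.3 in 6-week WT and 51.6 in 21-day WT. Wsb1, part of a ubiquitin ligase that targets HIPK2, had 86.0 and 40.7 in KI, 28.8 in KO, 31.2 in 6-week WT and 56.0 in 21-day WT, and KI replicate 1 stood apart. Lef1, a Wnt effector, had 46.8 and 52.0 in KI, 38.0 in KO, 68.8 in 6-week WT and 56.8 in 21-day WT, so the mutants were below both WT libraries. Ski, a corepressor of TGF-beta signalling, ranged from 30.4 in KO to 49.0 in 21-day WT. By limma 0 of 18 were called, with 0 at an unadjusted p under 0.05 in both comparisons.

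The other kinases of the DYRK family (7 genes, 4 tested) had medians of 0.34 in KI against 6-week WT (0.52 in KI replicate 1 and 0.17 in KI replicate 2) and -0.73 in KO against 21-day WT. Dyrk1a had 30.5 and 26.8 in KI, 17.8 in KO, 20.9 in 6-week WT and 29.7 in 21-day WT. Prpf4b, a kinase of the spliceosome, had 24.9 and 29.3 in KI, 13.7 in KO, 17.2 in 6-week WT and 24.5 in 21-day WT. Dyrk2, which like HIPK2 phosphorylates p53, had 20.2 and 12.6 in KI, 13.3 in KO, 13.4 in 6-week WT and 17.2 in 21-day WT, and Dyrk1b 1.97 to 3.99. Hipk4, the remaining HIPK, was at 0.105 or less, so Hipk1, Hipk2 and Hipk3 were the HIPK genes detected at more than trace level. By limma 0 of 4 were called, with 0 at an unadjusted p under 0.05.

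Proliferation genes (11, all tested) separated the KI libraries from each other. Their median against 6-week WT was -0.03 in KI replicate 1 and 1.27 in KI replicate 2, and that of KO was 1.20 against 21-day WT and 0.64 against 6-week WT. In KO against 21-day WT, 6 of 11 were past 2-fold higher and 0 lower, where 6.13% and 8.14% of all tested genes were. Pcna, a replication clamp, was the highest and nearly level, at 122 and 135 in KI, 117 in KO, 125 in 6-week WT and 112 in 21-day WT. Top2a had 25.0 and 86.8 in KI, 53.4 in KO, 25.3 in 6-week WT and 22.6 in 21-day WT. Cdk1, past 2-fold in KO against both WT libraries as Top2a was, had 7.44 and 19.6 in KI, 27.8 in KO, 7.95 in 6-week WT and 5.91 in 21-day WT. Among all tested genes, 2.17% were past 2-fold higher in KO against both WT libraries. Birc5 and Mki67 also had their highest level in KI replicate 2, at 39.7 and 49.9. By limma 0 of 11 were called, with 0 at an unadjusted p under 0.05 in either comparison. Hipk2 had 28.2 and 32.7 in the same KI libraries, and the part of cycling cells in its level was not tested.

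Over the 5 libraries, the protein-coding genes whose pattern was most like that of Hipk2 were Cdk6, Fam160a1, Tiam1 and Fsd1l, by the root mean square difference of centred log2 values. That difference was 0.180 for Cdk6, a cell cycle kinase, and 0.276 to 0.294 for the other 3 of these, among 9871 genes compared. Cdk6 had 25.6 and 24.1 scaled FPKM in KI, 8.45 in KO, 3.52 in 6-week WT and 7.85 in 21-day WT, the same order of libraries as Hipk2 but for the KI pair. Tiam1, an exchange factor for Rac, had 97.3 and 86.0 in KI, 54.4 in KO, 25.3 in 6-week WT and 41.3 in 21-day WT. Each of these had both KI libraries highest and 6-week WT lowest. Of the 9871 genes, Hipk3 ranked 243, Hipk1 415, Mdm4 941, Mdm2 2021 and Trp53 3829. With 5 libraries the ranking is a description.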

How the data were processed

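Total RNA of sorted Treg cells was sequenced in 5 libraries of 4 groups. The authors used CASAVA, HISAT2 2.1.0 and Cufflinks 2.2.1 with GRCm38, per the submitters' processing notes. The authors deposited gene-level FPKM with a lower and an upper bound, per the file headers. The read type, strand setting and annotation release were not given in the sources used here. File starts count from 0 and were raised by 1.

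Scaling was by median-of-ratios factors, for which 9874 genes with an FPKM of at least 1 in each library were used, and comparison was on log2(scaled FPKM + 1), where low genes change less than their ratio. A mean scaled FPKM of at least 1 was reached by 11296 genes, tested with limma 3.58.1 (R 4.3.3; trend, two-sided, Benjamini-Hochberg adjustment, threshold 0.05) on 4 group means. Its 1 residual degree of freedom comes from the KI pair, whose spread also stands for that of the lone libraries. The step was checked on simulated data in which all libraries varied alike. That check does not cover whether the lone libraries vary as the KI pair does. The p-values measure spread that may be technical.

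The genes and lists were chosen with earlier results of these data known. Named from each list were the 4 tested genes of highest mean level, any gene called by limma in KI against 6-week WT, and any past 2-fold in all 4 KI-WT pairs or in KO against both WT libraries. The genes most like Hipk2 in pattern were also named, of which 1 of 5 is not reported here. Cdkn1a, Hipk4 and single marker genes were named outside this rule, after their values were seen. Alternatives were the pseudocount (0.1), scaling, filter, trend, control libraries and each KI library left out. After seeing the data, protein-coding genes alone, WT of the other age as control, ratios between members and length classes were added. RefSeq windows (GRCm38.p6) and GENCODE M21 gave sequences, gene types and lengths.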

Additional observations from a re-analysis of the deposited data

Results flagged for a closer look

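Hipk1, Hipk3, Mdm2 and Mdm4 lay above WT of the same age in both KI libraries and below it in the library labelled KO, so the direction differed between the mutants. The difference between the mutants was not tested, since the genes were chosen with these values known. Hipk1 lay at 1.05 and 1.06 in KI replicates 1 and 2 and at -1.09 in KO, on the log2 scale. Hipk3 lay at 1.10 and 1.51 in KI and at -1.23 in KO. Mdm2 lay at 0.58 and 0.30 in KI and at -0.71 in KO. Mdm4 lay at 0.91 and 0.84 in KI and at -1.15 in KO. The WT libraries differed in the same genes, by -0.98 for Hipk1, -1.07 for Hipk3, -0.44 for Mdm2 and -0.68 for Mdm4 (6-week WT minus 21-day WT). Both same-age comparisons set libraries of unlike depth against each other. Against 21-day WT, of like depth, the KI means of these genes lay at 0.07, 0.24, -0.0024 and 0.20, in the same order. Against 6-week WT, also of like depth, KO lay at -0.11, -0.16, -0.26 and -0.47, with bounds apart for Mdm4 alone. The part of depth in the opposite directions was not tested.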

How the results depend on the processing

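No paired analysis was possible because KO and each WT group had 1 library, so no groups share 2 replicate numbers. The unscaled FPKM moved the median of all genes by -0.35 and -0.17 for KI replicates 1 and 2 against 6-week WT, and by 0.35 for KO and 0.35 for 6-week WT against 21-day WT. The direction of every member was kept in all 3 comparisons under the other pseudocount, the other scalings and each KI library left out, except Trp53 in KI, which ranged from -0.29 to 0.10. With WT of the other age as control, Mdm2 in KI lay at -0.0024, against 0.44, and Trp53 in KO at -0.047, against 0.11. Hipk2 in KI lay at 2.22 unscaled and at 2.69 with a pseudocount of 0.1, and in KO at 0.60 unscaled. Trp53 lay at 0.49 unscaled in KO, against 0.11, and at 0.54 unscaled for 6-week WT minus 21-day WT, against 0.16. Unscaled list medians for KI and KO were -0.16 and 0.14 (p53 targets), 0.10 and 0.29 (upstream regulators), -0.27 and 0.14 (HIPK partners) and 0.058 and -0.38 (DYRK family). Without a filter the DYRK medians were 0.066 and -0.35. With WT of the other age as control the medians were 0.068 (p53 targets, KO), 0.044 (upstream regulators, KI), and -0.075 in KI and -0.26 in KO (DYRK family). Leaving out each KI library gave 0.067 to 0.31 for p53 targets, 0.31 to 0.45 for upstream regulators, -0.0011 to 0.22 for HIPK partners and 0.17 to 0.52 for the DYRK family. A pseudocount of 0.1 raised the counts past 2-fold to 1055, against 656, for KI against 6-week WT, to 140, against 71, for KI against both WT libraries, to 610, against 351, for KO against both, and to 1498, against 967, between WT ages. Leaving out each KI library gave 1260 to 1492 and 267 to 291 for the first 2 of these, where fewer pairs have to pass. Limma called 35 (KI), 53 (KO) and 37 (WT ages) genes with a pseudocount of 0.1, 14 (KI) and 6 (KO) among protein-coding genes, 1 (KO) unscaled, and 0 (KI) without a filter or without trend. With both WT libraries as control it called 0 to 1 when a KI library was left out, 0 without KI replicate 2. The causes of these shifts were not tested. Low depth of KO and 6-week WT limits their values: the bounds of Hipk2 lay 19.0% of its level away in 6-week WT and 4.83% in KI replicate 2.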
